A study of Saccharomyces cerevisiae with 12 samples.

Results

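The genes described here serve budding yeast when glucose is absent. They are 37 genes of glucose-repressed sugar use, ethanol and lactate entry, gluconeogenesis, the glyoxylate cycle, the carnitine shuttle, peroxisomal fatty acid oxidation and glycerol use, with 5 of their transcription factors. They were taken by name from a list, and each was measured by 1 probe among the 5594 genes tested. The values are log2 ratios of a strain lacking ZTA1 (YBR046C), named ∆zta1, to its wild type FY834α on 2-colour expression arrays. The deleted gene codes for the yeast zeta-crystallin, an enzyme that reduces quinones. Cultures of either strain were in exponential growth in YPD at 30 degrees. In 3 pairs of cultures neither strain was treated, and in the other 3 pairs both strains received 10 mM hydrogen peroxide (H2O2) for 30 min. A pair is 1 ∆zta1 and 1 wild-type culture, hybridised on 2 arrays with the dyes swapped. The labels call the pairs biological replicates, and they do not say how ZTA1 was removed or whether ∆zta1 was a single clone.

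Glucose keeps most of these genes off in growing yeast. The kinase Snf1 is inactive in abundant glucose, and the repressor Mig1 holds down genes for other sugars. When glucose runs out, Cat8 and Sip4 switch on gluconeogenesis and the glyoxylate cycle, Adr1 switches on ethanol and fatty acid use, and Pip2 with Oaf1 switches on peroxisomal oxidation when fatty acids are the carbon source. The cultures grew in glucose medium, so low transcript levels would be usual for many of the 37 genes. The deposited table holds ratios and no intensities, so the level of each gene and its signal over background are unknown.

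Values are the mean log2 ratio of the 2 arrays of a pair, and a negative value means less transcript in ∆zta1. ZTA1 itself read -5.84, -4.32 and -5.73 without treatment and -4.96, -4.56 and -4.58 with H2O2, low in every pair. Untreated replicate 2 stood apart from the other pairs. In it 69 of 5594 genes differed by more than 1.5-fold, against 5 to 11 in each of the other 5 pairs. Markers of mating type could be compared only between the strains, since levels are not in the table. The 4 measured alpha-cell genes had medians of -0.13, 0.29 and -0.017 without treatment and -0.18, -0.15 and 0.011 under H2O2, and the 6 a-cell genes had medians from -0.17 to 0.030 over the 6 pairs. None of these 10 genes passed in any comparison.

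None of the 37 genes passed as different between ∆zta1 and wild type in limma's test with Benjamini-Hochberg adjustment over all 5594 genes, in which an adjusted p under 0.05 counted as passing. This held in untreated cells, under H2O2, for the difference between the treatments and for the mean of both. Over all genes the share that passed was 0.197% in untreated cells, 0.215% under H2O2, 0.0% for the difference and 0.286% for the mean, so a set of 37 at the background rate would hold less than 1 such gene. The smallest limma adjusted p among the 37 was 0.9995 untreated, 0.585 under H2O2, 0.9993 for the difference and 0.480 for the mean. At an unadjusted p under 0.05 there were 0 of 37 in untreated cells, 5 (13.5%) under H2O2, 0 for the difference and 4 (10.8%) for the mean. All genes gave 3.65%, 8.29%, 1.27% and 9.46% by the same criterion.

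The ratios of the 37 genes were centred on 0. Their median log2 ratio was -0.0036 in untreated cells, with 18 genes above 0 and 19 below, and -0.00070 under H2O2, again with 18 above and 19 below. The medians over all genes were 0.00052 and -0.0023. In single pairs the median of the 37 was -0.0031, -0.016 and -0.0088 untreated and 0.030, -0.018 and -0.014 under H2O2, and 25 of 37 were above 0 in H2O2 replicate 1 against 13 to 17 in the other 5 pairs. The median size of the ratio, regardless of sign, was 0.024 untreated and 0.035 under H2O2, beside 0.024 and 0.032 over all genes.

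Some genes kept 1 sign in every pair of a treatment. In untreated cells 3 of 37 genes (8.11%) were above 0 in all 3 pairs and 6 (16.2%) below, beside 10.5% and 11.0% of all genes. Under H2O2, 6 genes (16.2%) were above 0 in all 3 pairs and 9 (24.3%) below, beside 14.2% and 15.8% of all genes. The 9 were HXK1, SUC2, MAL12 and MAL32 of sugar use and POX1, POT1, ECI1, FAA2 and IDP3 of the peroxisome. The 6 were ADH2, ACS1, FBP1, ICL1, YAT1 and YAT2.

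**Figure D1:**
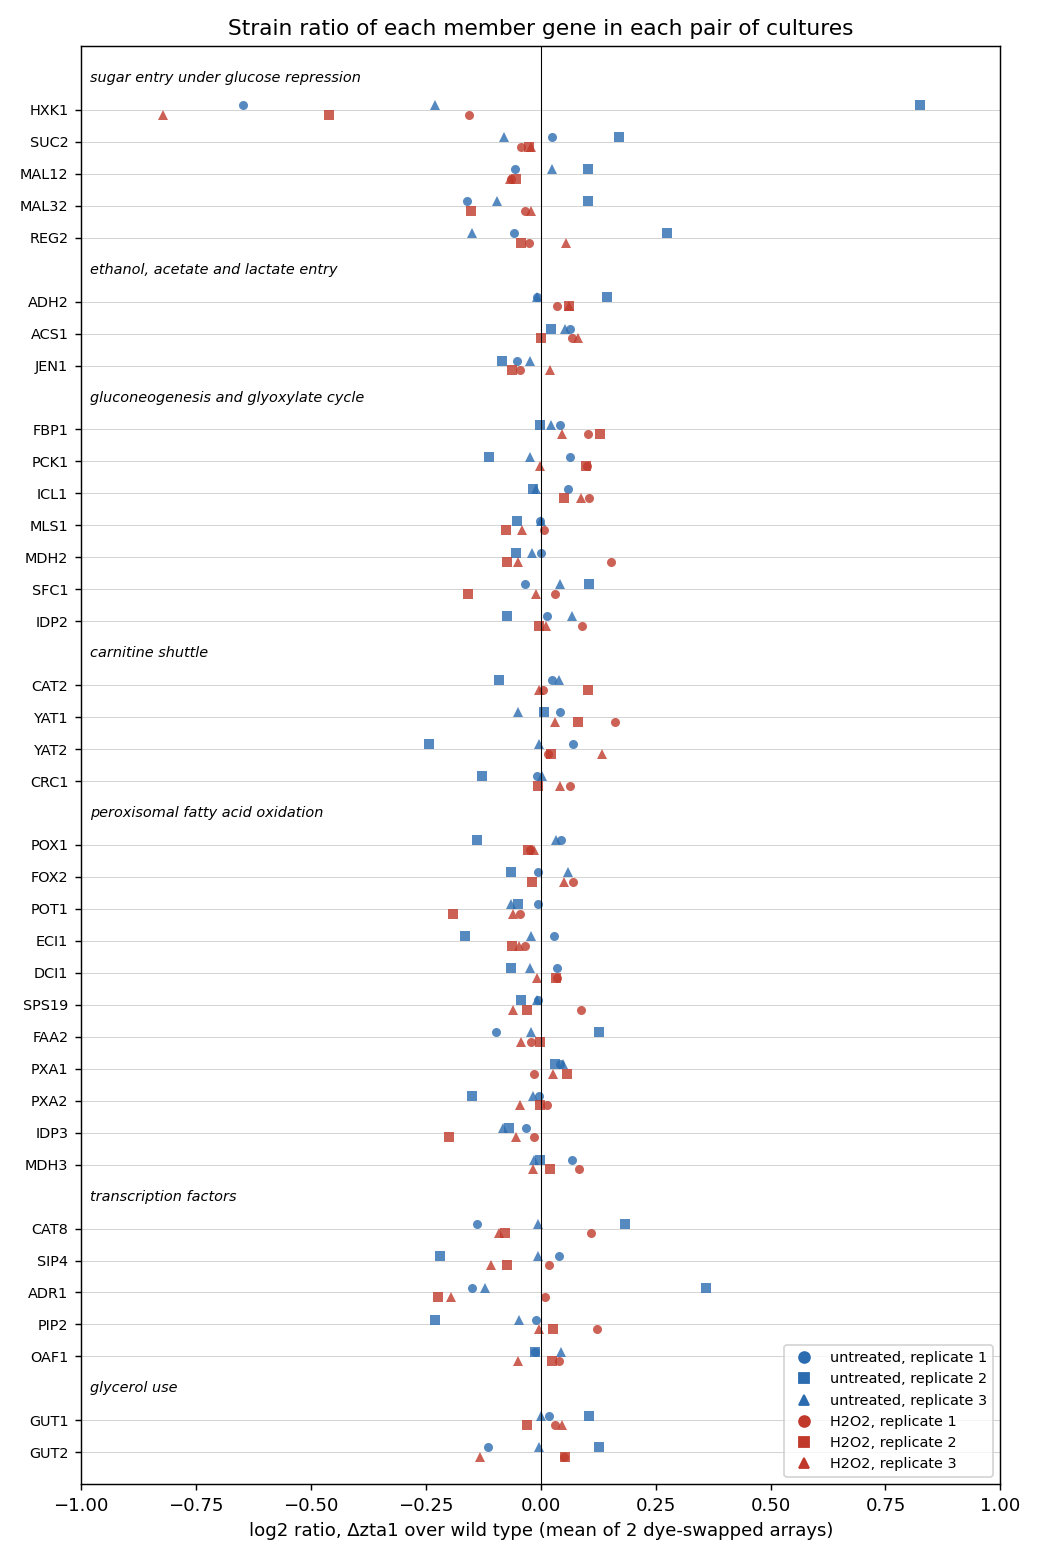
Each row is 1 of the 37 genes, grouped by role, and each marker is the log2 ratio of ∆zta1 to wild type in 1 pair of cultures (blue untreated, red H2O2, shape giving the replicate). Most markers lie near 0, while HXK1 spans -0.82 to 0.82 and untreated replicate 2 lies apart for HXK1, REG2 and ADR1.

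Of the 5 genes for the use of sugars, HXK1 (YFR053C) had by far the widest ratios. It encodes hexokinase 1, the isoform made when glucose is scarce. Without treatment the log2 ratios of replicates 1 to 3 were -0.65, 0.82 and -0.23, and with H2O2 they were -0.16, -0.46 and -0.82. Untreated replicate 2 was the only pair above 0, and the groups overlapped, with H2O2 replicate 3 the lowest of all 6. The mean was -0.018 ± 0.76 (SD, n = 3 pairs) untreated and -0.48 ± 0.33 under H2O2, which is 1.39-fold lower. Neither passed (limma adjusted p = 0.9995 and 0.614), and the difference between treatments was -0.46 ± 0.33 (SE, adjusted p = 0.9993). The untreated mean was far smaller than its SD, and the H2O2 mean was larger than its SD without passing.

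For HXK1 the untreated mean and the difference between treatments depended most on untreated replicate 2, which does not enter the H2O2 mean. Without that pair its mean untreated ratio was -0.44, and the difference between treatments shrank to -0.041. The mean over both treatments moved from -0.25 to -0.46, and limma's adjusted p from 0.636 to 0.0684, still short of passing. Without untreated replicate 1 the untreated mean was 0.30, the mean over both treatments -0.091 and the difference -0.78. Without H2O2 replicate 3 the H2O2 mean was -0.31, the mean over both treatments -0.16 and the difference -0.29. The SD of HXK1 between pairs of a treatment was 0.59, the 9th largest of 5594 genes. An interval built from its own 3 H2O2 pairs ran from -1.31 to 0.35, and limma's, which borrows the spread of other genes, ran from -1.01 to 0.050.

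Stress genes under Msn2 and Msn4, a program that cells also use as glucose declines, mostly had lower means in ∆zta1 and varied between the same pairs. The mean was below 0 for 18 of 21 untreated and for 18 of 21 under H2O2, beside 2762 and 2913 of all 5594 genes. Single pairs were uneven, with 3, 10 and 9 of 21 above 0 untreated and 13, 4 and 3 under H2O2. At an unadjusted limma p under 0.05 there were 2 (9.52%) untreated, 6 (28.6%) under H2O2 and 7 (33.3%) for the mean, all lower. All genes gave 3.65%, 8.29% and 9.46%. Their 21 measured members had medians of -0.12, -0.019 and -0.013 without treatment and 0.026, -0.086 and -0.22 under H2O2. Under H2O2 the order of the pairs was the order seen for HXK1, with replicate 3 lowest and replicate 1 highest. This order was not particular to the stress genes. The medians of glucose repression signalling, the GID ubiquitin ligase, other carbon use, the transcription factors and glycerol use had it too. So did those of peroxisomal fatty acid oxidation (-0.014, -0.018 and -0.043) and, very near 0, of all genes (0.002327, -0.003386 and -0.003389). Those of the sugar, ethanol and lactate entry, gluconeogenic, carnitine and peroxisome biogenesis genes did not. In untreated replicate 2, where HXK1 was high, the stress genes were near 0, with 10 of 21 above it. Of the list, YGP1, a secreted glycoprotein, passed as lower under H2O2 (-0.32 ± 0.13, SD, n = 3 pairs, limma adjusted p = 0.0339) and for the mean (-0.25 ± 0.032, SE, adjusted p = 0.014). HSP12, a membrane stress protein, had -0.53, -0.24 and -0.25 untreated and -0.049, -0.26 and -0.29 under H2O2, and its untreated mean did not pass (limma adjusted p = 0.236). ALD3, an aldehyde dehydrogenase, had -0.065, -0.10 and 0.028 untreated and 0.052, 0.033 and 0.014 under H2O2, and its difference between treatments of 0.078 ± 0.046 (SE) did not pass (adjusted p = 0.9993). The part of this program in the ratios of HXK1 was not tested.

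The other sugar genes had ratios nearer to 0. SUC2 (YIL162W), the invertase that splits sucrose, had 0.024, 0.17 and -0.080 untreated and -0.042, -0.025 and -0.022 under H2O2. MAL12 (YGR292W), a maltase, had -0.056, 0.10 and 0.025 untreated and -0.064, -0.053 and -0.066 under H2O2. MAL32 (YBR299W), a near-identical maltase of another locus, had -0.16, 0.10 and -0.094 untreated and -0.034, -0.15 and -0.021 under H2O2. The maltase genes are close copies, so each probe may detect both transcripts and their values are uncertain as measures of 1 gene. All 3 genes were below 0 in every H2O2 pair, by at most 0.15, and none passed. Single arrays did not all share that sign. With ∆zta1 in Cy3, the H2O2 replicates read 0.018, 0.20 and 0.025 for MAL12 and 0.12, -0.19 and 0.10 for MAL32.

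REG2 (YBR050C), a regulatory subunit of the phosphatase Glc7 that takes part in shutting off maltose uptake, had -0.057, 0.27 and -0.15 untreated and -0.026, -0.043 and 0.055 under H2O2. Untreated replicate 2 was again its highest pair. All 5 sugar genes were above 0 in that pair, where their median was 0.17, against 1 of 5 in each of the other untreated pairs. Under H2O2 the 5 means were all below 0, with a median of -0.061. HXK2, the hexokinase used in abundant glucose, had -0.086, 0.14 and -0.043 untreated and 0.064, -0.12 and -0.028 under H2O2, highest in untreated replicate 2 and within 0.20 of 0 in every pair. These small pair means rest on large dye differences that cancel. With ∆zta1 in Cy5, HXK2 deviated from its pair mean by -0.67 on average. The largest such deviation among the 37 genes was -0.19, for GUT1.

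**Figure D2:**
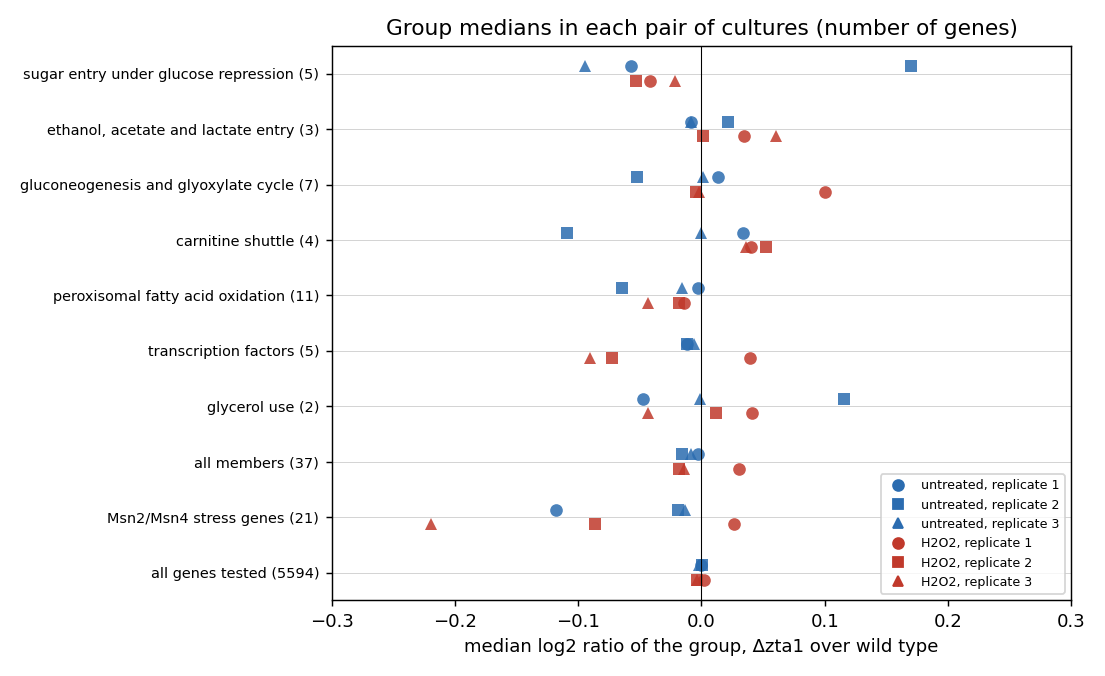
Each marker is the median log2 ratio of a group of genes in 1 pair of cultures (blue untreated, red H2O2, shape giving the replicate), with the number of genes in brackets. The sugar genes stand at 0.17 and the carnitine genes at -0.11 in untreated replicate 2, and the median over all genes lies near 0 in every pair.

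None of the 3 genes for the entry of ethanol, acetate and lactate passed, and their ratios lay within 0.15 of 0 in every pair. ACS1 (YAL054C), the acetyl-CoA synthetase used on acetate and ethanol, had 0.065, 0.022 and 0.053 untreated and 0.068, 0.0014 and 0.081 under H2O2. It was the 1 gene of the 37 above 0 in all 6 pairs (2.70%, against 3.09% of all genes), with a mean over both treatments of 0.048 ± 0.021 (SE, limma adjusted p = 0.52). Its untreated mean was 0.046 ± 0.030 (SE, limma adjusted p = 0.9995). ADH2 (YMR303C), which oxidises ethanol and is a classic glucose-repressed gene, had -0.0083, 0.14 and -0.0088 untreated and 0.035, 0.062 and 0.061 under H2O2. JEN1 (YKL217W), the lactate and pyruvate permease, had -0.051, -0.085 and -0.023 untreated and -0.045, -0.063 and 0.020 under H2O2, below 0 in 5 of 6 pairs. Its mean was -0.053 ± 0.030 (SE) untreated and -0.041 ± 0.021 over both treatments (limma adjusted p = 0.9995 and 0.584).

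In gluconeogenesis, FBP1 (YLR377C), fructose bisphosphatase, had the smallest p of the 37 genes under H2O2. Its ratios were 0.041, -0.0010 and 0.022 untreated and 0.10, 0.13 and 0.046 under H2O2, so the H2O2 pairs were all above the untreated ones. The H2O2 mean was 0.093 ± 0.043 (SD, n = 3 pairs), a 1.07-fold higher level with a 95% interval of 0.026 to 0.16 on the log2 scale, and did not pass (limma adjusted p = 0.585). The difference between treatments was 0.072 ± 0.042 (SE, unadjusted p = 0.118 and limma adjusted p = 0.9993). The mean over both treatments was 0.057 ± 0.021 (SE, limma adjusted p = 0.48). PCK1 (YKR097W), phosphoenolpyruvate carboxykinase, had 0.064, -0.11 and -0.023 untreated and 0.10, 0.10 and -0.0016 under H2O2. FBP1 and the transcription factor PIP2 were the 2 genes of the 37 (5.41%) whose H2O2 pairs all lay above the untreated pairs, as did 2.66% of all genes, and none of the 37 had the opposite separation (2.88% of all genes).

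The glyoxylate cycle makes sugar precursors from acetyl-CoA. ICL1 (YER065C), isocitrate lyase, had 0.059, -0.016 and -0.010 untreated and 0.10, 0.051 and 0.087 under H2O2, where its mean of 0.081 ± 0.027 (SD, n = 3 pairs) did not pass (limma adjusted p = 0.595). Its mean over both treatments was 0.046 ± 0.021 (SE, limma adjusted p = 0.54). MLS1 (YNL117W), malate synthase, which takes the next step, had -0.00092, -0.052 and 0.0011 untreated and 0.0073, -0.075 and -0.040 under H2O2. The enzymes of the same cycle thus had means on opposite sides of 0 under H2O2, each by less than 0.10. MDH2 (YOL126C), cytosolic malate dehydrogenase, had 0.00049, -0.055 and -0.018 untreated and 0.15, -0.072 and -0.050 under H2O2, with H2O2 replicate 1 alone above 0.

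SFC1 (YJR095W), which exchanges succinate and fumarate across the mitochondrial membrane, had -0.033, 0.10 and 0.041 untreated and 0.030, -0.16 and -0.011 under H2O2. IDP2 (YLR174W), cytosolic isocitrate dehydrogenase and a source of NADPH, had 0.013, -0.074 and 0.067 untreated and 0.090, -0.0044 and 0.012 under H2O2. All 7 genes of gluconeogenesis and the glyoxylate cycle were above 0 in H2O2 replicate 1, with a median of 0.10, but 3 of 7 were in each of the other H2O2 pairs, with medians of -0.0044 and -0.0016.

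The carnitine shuttle carries acetyl groups between peroxisome, cytosol and mitochondrion. YAT1 (YAR035W), the acetyltransferase of the outer mitochondrial surface, had 0.043, 0.0070 and -0.049 untreated and 0.16, 0.081 and 0.031 under H2O2, where its mean of 0.091 ± 0.066 (SD, n = 3 pairs) did not pass (limma adjusted p = 0.595) and was 0.056 without replicate 1. YAT2 (YER024W), the cytosolic acetyltransferase, had 0.070, -0.24 and -0.0036 untreated and 0.016, 0.023 and 0.13 under H2O2. CAT2 (YML042W), the enzyme of peroxisomes and mitochondria, had 0.025, -0.091 and 0.040 untreated and 0.0059, 0.10 and -0.0037 under H2O2. YAT2 and CAT2 were each lowest in untreated replicate 2.

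CRC1 (YOR100C), the mitochondrial carnitine carrier, had -0.0080, -0.13 and 0.0030 untreated and 0.065, -0.0054 and 0.041 under H2O2, with untreated replicate 2 also lowest. The median of the 4 carnitine genes was 0.034, -0.11 and -0.00029 untreated and 0.040, 0.052 and 0.036 under H2O2. All 4 had a mean above 0 under H2O2, between 0.034 and 0.091, and none passed for the difference between treatments (largest 0.12 for YAT2, limma adjusted p = 0.9993).

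Yeast degrades fatty acids only in peroxisomes. Fatty acids enter through the partner subunits of a transporter, PXA1 (YPL147W) and PXA2 (YKL188C), or are activated inside by FAA2 (YER015W), an acyl-CoA synthetase. PXA1 had 0.043, 0.032 and 0.048 untreated and -0.016, 0.057 and 0.026 under H2O2, and PXA2 had -0.0031, -0.15 and -0.016 untreated and 0.013, -0.0019 and -0.044 under H2O2. The partners had untreated means on opposite sides of 0, at 0.041 ± 0.028 and -0.056 ± 0.036 (SE), and neither passed (limma adjusted p = 0.9995 for each). The value of PXA2 rested on untreated replicate 2, without which it was -0.010. FAA2 had -0.10, 0.13 and -0.020 untreated and -0.022, -0.0014 and -0.043 under H2O2, with untreated replicate 2 highest.

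Of the core enzymes, POT1 (YIL160C), the thiolase of the last step, was below 0 in every pair. Its ratios were -0.0062, -0.049 and -0.064 untreated and -0.046, -0.19 and -0.060 under H2O2. The H2O2 mean was -0.10 ± 0.080 (SD, n = 3 pairs, limma adjusted p = 0.595), and the mean over both treatments was -0.069 ± 0.025 (SE, adjusted p = 0.48), with a 95% interval of -0.13 to -0.012. On single arrays POT1 kept this sign only with ∆zta1 in Cy5. In Cy3 it read 0.061, -0.0076 and 0.023 untreated and 0.12, -0.31 and 0.069 under H2O2. POX1 (YGL205W), the acyl-CoA oxidase that starts the cycle and releases hydrogen peroxide, had 0.045, -0.14 and 0.034 untreated and -0.023, -0.028 and -0.014 under H2O2. FOX2 (YKR009C), the enzyme of the middle steps, had -0.0052, -0.064 and 0.059 untreated and 0.069, -0.018 and 0.051 under H2O2. The 3 core enzymes did not share a sign, since FOX2 was above 0 in 3 of 6 pairs, POX1 in 2 and POT1 in none.

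IDP3 (YNL009W), the peroxisomal isocitrate dehydrogenase that supplies NADPH for unsaturated fatty acids, was also below 0 in every pair, with -0.031, -0.068 and -0.082 untreated and -0.014, -0.20 and -0.053 under H2O2. Its mean was -0.061 ± 0.039 (SE) untreated, -0.089 ± 0.039 under H2O2 and -0.075 ± 0.027 over both (limma adjusted p = 0.9995, 0.598 and 0.48). H2O2 replicate 2 was the lowest pair for IDP3 and for POT1, and without it their H2O2 means were -0.033 and -0.053. These were the 2 genes of the 37 (5.41%) below 0 in all 6 pairs, against 3.74% of all genes. As for POT1, the single arrays of IDP3 were all below 0 only with ∆zta1 in Cy5. In Cy3 IDP3 read 0.10, -0.037 and -0.050 untreated and 0.063, -0.29 and 0.11 under H2O2. SPS19 (YNL202W), the dienoyl-CoA reductase that uses this NADPH, had -0.0048, -0.042 and -0.0072 untreated and 0.087, -0.030 and -0.059 under H2O2, closer to 0 than IDP3 in the untreated mean and the H2O2 mean.

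ECI1 (YLR284C), an enoyl-CoA isomerase, had 0.028, -0.16 and -0.022 untreated and -0.034, -0.062 and -0.047 under H2O2. Its relative DCI1 (YOR180C) had 0.036, -0.066 and -0.023 untreated and 0.036, 0.033 and -0.0081 under H2O2. MDH3 (YDL078C), the peroxisomal malate dehydrogenase that reoxidises NADH, had 0.069, -0.0019 and -0.015 untreated and 0.083, 0.020 and -0.017 under H2O2. Over the 11 peroxisomal genes, 8 had an untreated mean below 0 and 7 an H2O2 mean below 0. The median was below 0 in all 6 pairs, from -0.064 in untreated replicate 2 to -0.0031 in untreated replicate 1, and no gene passed.

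Among the transcription factors, ADR1 (YDR216W), the activator of ADH2 and of peroxisomal genes, varied most. Its ratios were -0.15, 0.36 and -0.12 untreated and 0.010, -0.22 and -0.19 under H2O2. As for HXK1, untreated replicate 2 was the highest pair and the other untreated pairs were below 0. Its SD between pairs of a treatment was 0.22, exceeded by 1.84% of genes, and without untreated replicate 2 the untreated mean turned from 0.030 to -0.14.

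CAT8 (YMR280C), the activator of gluconeogenesis, had -0.14, 0.18 and -0.0059 untreated and 0.11, -0.078 and -0.090 under H2O2. SIP4 (YJL089W), which binds the same promoter elements, had 0.039, -0.22 and -0.0054 untreated and 0.018, -0.073 and -0.11 under H2O2, so the factors had opposite signs in untreated replicate 2. PIP2 (YOR363C) and OAF1 (YAL051W) encode the partners that bind oleate response elements. PIP2 had -0.0092, -0.23 and -0.046 untreated and 0.12, 0.027 and -0.0027 under H2O2. OAF1, which is made in glucose as well, had -0.011, -0.012 and 0.045 untreated and 0.039, 0.026 and -0.048 under H2O2.

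PIP2 had the smallest p of the 37 genes in untreated cells and for the difference between treatments. The untreated mean was -0.095 ± 0.12 (SD, n = 3 pairs, limma adjusted p = 0.9995), carried mostly by replicate 2, without which it was -0.028. The difference between treatments was 0.14 ± 0.065 (SE, unadjusted p = 0.0551, limma adjusted p = 0.9993), or 0.077 without that pair. The next smallest p for the difference belonged to YAT1 (0.091 ± 0.049, SE), MAL12 (-0.085 ± 0.049), FBP1, ICL1 (0.070 ± 0.042) and PCK1 (0.089 ± 0.056), each with a limma adjusted p of 0.9993. Without untreated replicate 2 the difference was -0.046 for MAL12 and 0.045 for PCK1, and without H2O2 replicate 1 it was 0.056 for YAT1. Genes that lay on opposite sides of 0 in the treatments were thus not shown to respond differently.

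Glycerol enters metabolism through GUT1 (YHL032C), glycerol kinase, and GUT2 (YIL155C), the mitochondrial glycerol phosphate dehydrogenase. GUT1 had 0.019, 0.10 and 0.00067 untreated and 0.031, -0.029 and 0.046 under H2O2. GUT2 had -0.11, 0.13 and -0.0033 untreated and 0.051, 0.053 and -0.13 under H2O2. Neither gene kept 1 sign over the 6 pairs.

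Some of these genes read differently in the dye orientations, GUT1 most of the 37. With ∆zta1 in Cy5, GUT1 read -0.21, -0.078, -0.20, -0.16, -0.19 and -0.11 over the untreated and then the H2O2 replicates. With ∆zta1 in Cy3 it read 0.24, 0.29, 0.20, 0.22, 0.13 and 0.20. Every Cy5 value was negative and every Cy3 value positive, and the pair means stayed between -0.029 and 0.10. CRC1, MDH3 and OAF1 behaved likewise in all 6 pairs, which makes 4 of 37 genes (10.8%), against 8.81% of all genes, while 0 of 37 had the opposite order of dyes (6.85% of all genes). Tested by limma on the Cy5 orientation alone, where the dye does not cancel, 5 of 37 genes (13.5%) passed untreated, 4 (10.8%) under H2O2 and 14 (37.8%) for the mean, beside 16.2%, 16.6% and 36.9% of all genes. On the Cy3 orientation alone 1, 1 and 6 passed (2.70%, 2.70% and 16.2%), beside 10.0%, 7.51% and 26.4% of all genes. GUT1 passed with opposite signs in these tests untreated, under H2O2 and for the mean, and MAL12, CRC1, MDH3 and OAF1 did so for the mean. For HXK1 the arrays of a pair differed as well, but untreated replicate 2 was high on both, at 0.70 and 0.95, and H2O2 replicate 3 low on both, at -0.93 and -0.72.

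**Figure D3:**
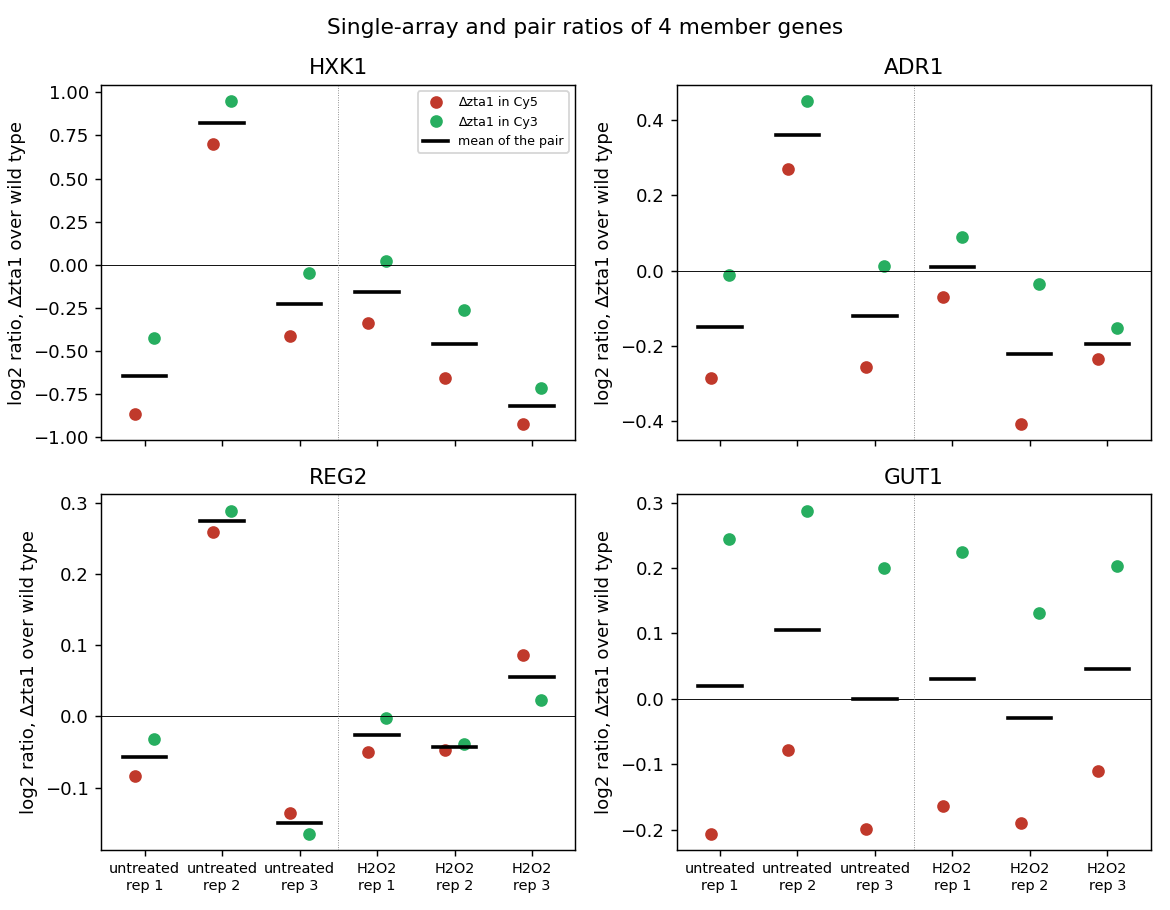
Points are log2 ratios of ∆zta1 to wild type on single arrays (red with ∆zta1 in Cy5, green with ∆zta1 in Cy3) and bars are the means of a pair, for HXK1, ADR1, REG2 and GUT1 with a separate vertical scale each. The dyes separate GUT1 in every pair, whereas for HXK1, ADR1 and REG2 both arrays of untreated replicate 2 lie above 0.

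The spread between pairs was ordinary for most of the 37 genes. Its median SD was 0.063, beside 0.061 over all genes, and 5 of 37 genes (13.5%) were in the tenth of all genes with the largest SD, namely HXK1, ADR1, REG2, CAT8 and YAT2. In 12 of 37 genes (32.4%) untreated replicate 2 had the opposite sign to both other untreated pairs, as it did in 25.0% of all genes. For the 36 genes other than HXK1, limma's 95% interval lay within a 1.5-fold change in either direction in all 4 comparisons. Taking each comparison singly, 5537 to 5578 of the 5594 genes tested had an interval within it, and the number within it in all 4 was not counted. For HXK1 the interval passed 1.5-fold under H2O2, for the difference and for the mean. Untreated, limma's interval for HXK1 ran from -0.55 to 0.51, within 1.5-fold. An interval built from its own 3 untreated pairs was far wider, from -1.90 to 1.87. Such intervals were not built for the other 36 genes, for which limma's may also be too narrow. The 3 untreated pairs of ADR1 had an SD of 0.29, while limma's untreated interval for it ran from -0.18 to 0.24.

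**Figure D4:**
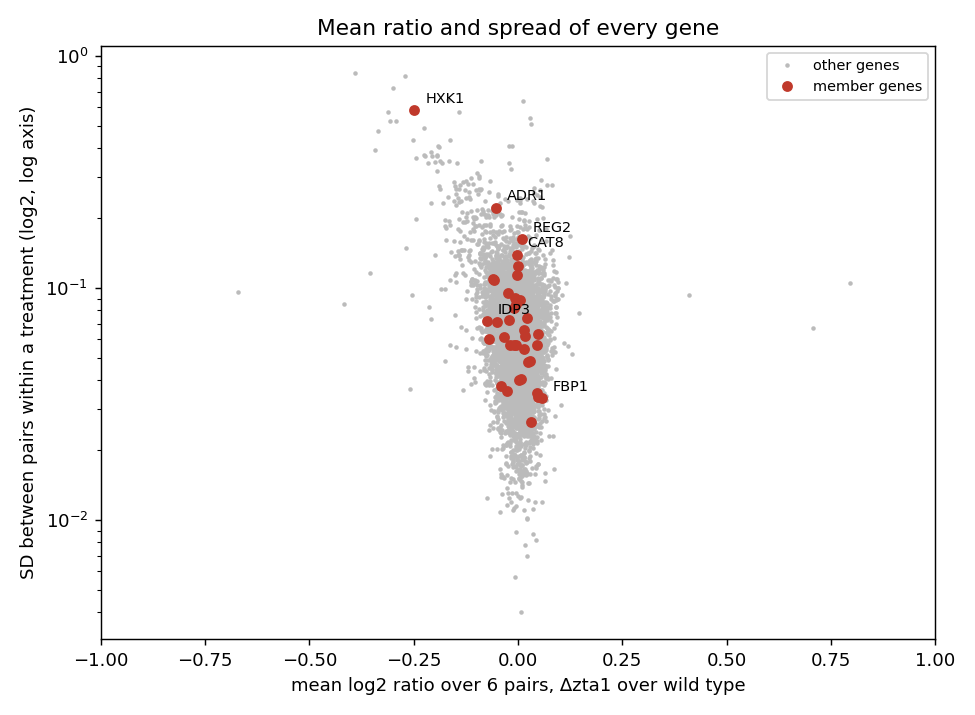
Each point is 1 gene, placed by its mean log2 ratio over 6 pairs and by its SD between pairs within a treatment (log axis), with the 37 genes in red and 4 of the other genes beyond the horizontal range. HXK1 lies apart from the rest of the 37 with an SD of 0.59 and a mean of -0.25.

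Of the genes of glucose repression signalling, the GID ligase, peroxisome biogenesis and other carbon use, none passed in any of the 4 comparisons by limma. Of 19 genes of glucose repression signalling, 1 in untreated cells and 3 under H2O2 had an unadjusted p under 0.05 (5.26% and 15.8%, beside 3.65% and 8.29% of all genes), and the median log2 ratio was -0.0054 and -0.00056. GLC7, the phosphatase that Reg1 directs against Snf1, had -0.073, -0.0036 and -0.068 untreated and -0.23, -0.086 and -0.079 under H2O2, below 0 in all 6 pairs (mean -0.090 ± 0.026, SE, adjusted p = 0.469). SNF1 itself had a mean of -0.062 ± 0.022 (adjusted p = 0.48) and REG1 an untreated mean of 0.066 ± 0.041 (adjusted p = 0.9995). HAP4, the activator of respiration genes, had 0.057, 0.49 and 0.081 untreated and 0.073, -0.19 and -0.15 under H2O2, again highest in untreated replicate 2. MIG2, a repressor made in glucose, had -0.022, -0.028 and -0.12 untreated and 0.13, 0.13 and 0.023 under H2O2, and its difference of 0.15 ± 0.049 did not pass (adjusted p = 0.9993).

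The GID ubiquitin ligase destroys gluconeogenic enzymes such as Fbp1 when glucose returns. Its 9 genes had a median of -0.0054 untreated and -0.0057 under H2O2, with 8 of 9 above 0 in H2O2 replicate 1 and 0 of 9 in H2O2 replicate 3. GID10, a substrate receptor, had 0.022, 0.10 and 0.057 untreated and -0.083, -0.091 and -0.071 under H2O2, without overlap, as in 2.88% of all genes. Its difference of -0.14 ± 0.041 (SE, unadjusted p = 0.00733) did not pass (limma adjusted p = 0.9993). The treatments did not overlap either for MIG2, with H2O2 higher, or for STL1 and PEX30 of the other lists, with H2O2 lower. The receptor gene VID24 had a difference of 0.10 ± 0.072 (adjusted p = 0.9993), GID11 a mean of -0.047 ± 0.034 and VID30 one of -0.022 ± 0.025 (adjusted p = 0.669 and 0.787).

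Of 31 listed genes of peroxisome biogenesis 29 were measured, and their median was -0.019 untreated and -0.0033 under H2O2. The smallest p belonged to INP1, which retains peroxisomes in the mother cell, under H2O2 (-0.091 ± 0.034, SE, limma adjusted p = 0.595) and to PEX18, a co-receptor for protein import, in untreated cells (-0.15 ± 0.047, adjusted p = 0.9995). PEX9 (-0.080 ± 0.040 under H2O2), PEX5 (-0.084 ± 0.047 untreated), PEX21 and PEX30 (0.18 ± 0.11 and -0.065 ± 0.040 for the difference) came next. Of 41 other genes for alternative carbon sources, 17 were above 0 untreated and 13 under H2O2 (medians -0.011 and -0.019). PNC1, a nicotinamidase, had -0.016, -0.14 and -0.53 under H2O2, and GPD1, glycerol phosphate dehydrogenase, had -0.019, -0.16 and -0.37, each lowest in replicate 3 and neither passing (limma adjusted p = 0.595 for each). CIT2, peroxisomal citrate synthase, had -0.0020, 0.12 and 0.20 untreated and -0.064, 0.029 and -0.12 under H2O2, AAT2, an aspartate aminotransferase, an untreated mean of -0.13 ± 0.057 and STL1, a glycerol transporter, a difference of -0.12 ± 0.057 (SE), none of them passing.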

How the data were processed

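Per the labels, total RNA of each culture was labelled with Cy3 or Cy5, and each pair was hybridised on 2 arrays with swapped dyes, 12 arrays in all. The authors deposited 1 log2 ratio per probe and array. Their background correction and normalisation are not given in the sources used here, and limma is named, without a version, per the submitters' processing notes. Base and direction (∆zta1 over wild type in every column) were read from the values, the titles and ZTA1. For replicate 3 the description of the first array names another replicate, and the title was followed.

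Of 6256 probes, 5620 had 1 gene, matched by identifier to a RefSeq table of assembly R64, from which names were taken. Probes of a gene were averaged (25 genes). Coordinates and sequences are not given, since the array's build was not stated and no sequence was used here.

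The arrays of a pair were averaged, and limma 3.58.1 (lmFit, eBayes, R 4.3.3) was fitted to 6 pair means with 1 mean per treatment and 4 residual degrees of freedom, two-sided, without a replicate block. The fit was tested on simulated data with planted changes larger than the mean ratio of any member in either treatment. Detection of changes as small as those of most members was not tested. Alternatives were centring, scaling, single dye orientations, all arrays in 1 fit, single treatments, robust eBayes, probes kept apart, a replicate block, leaving out each pair, and quality weights. No filter on low values was possible, and precision is limited by the number of pairs of cultures, 3 per treatment. The members and gene lists, drawn up from textbook knowledge, were chosen with earlier results of these data known. All 37 members are named. The 6 with the smallest p per comparison are given with a mean, its spread and an adjusted p. Of each other list except the mating-type markers, genes that passed or the 2 with the smallest p per comparison are named.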

Additional observations from a re-analysis of the deposited data

How the results depend on the processing

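No member passed in any comparison in the alternatives that used both dye orientations, nor with pairs weighted by quality, a setting added after seeing the data. With ∆zta1 in Cy5 only, 5 members passed untreated, 4 under H2O2 and 14 for the mean (906, 929 and 2063 of all genes). With ∆zta1 in Cy3 only, 1, 1 and 6 did (562, 420 and 1477 of all genes). By construction the dye effect does not cancel in these fits. GUT1 passed with opposite signs in them, as did MAL12, CRC1, MDH3 and OAF1 for the mean. The median of the members in untreated cells was -0.021 in Cy5, 0.023 in Cy3 and -0.011 with weights. IDP3 turned to 0.0051 untreated in Cy3. Leaving out single pairs gave member medians of -0.015 to -0.0025 untreated, -0.021 to 0.020 under H2O2, -0.016 to 0.024 for the difference and -0.013 to 0.0024 for the mean, always with 0 members passing. Over all genes, 9 to 12 passed untreated, 6 to 13 under H2O2, 0 to 3 for the difference (3 without untreated replicate 2) and 11 to 22 for the mean, against 11, 12, 0 and 16 with all pairs. For the mean, 30 passed with 12 arrays in 1 fit and 28 with weights; the cause was not tested. With the replicate number as a replicate block, 10, 10, 0 and 13 genes and no member passed; same-numbered pairs correlated at -0.0141, 0.0311 and -0.273 in their deviations across genes, so the numbers were not taken to pair them. Leaving out HXK1, a choice made after seeing the data, moved the member median to -0.0016 untreated and 0.0024 under H2O2. Ratios of dim genes are limited by a signal over background that is unknown here.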

Other observations

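Untreated replicate 2 held the widest ratio of each surrounding list but 1 in untreated cells. The following genes were chosen after their values were seen. In that pair HAP4 was highest among the genes of glucose repression signalling (0.49), MAL33, a regulator of maltose genes, among those of alternative carbon use (0.44), and GPH1, glycogen phosphorylase, among the Msn2 and Msn4 genes (0.39). IDP1, the mitochondrial isocitrate dehydrogenase, was lowest at -0.66, and PEX21 was lowest among the peroxisome genes at -0.37. In untreated replicate 1 GPH1 stood at -0.53, beside -0.65 for HXK1 in the same pair.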
